A study of Mus musculus with 6 samples.

Results

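The dual specificity MAP kinase phosphatases are the enzymes that switch MAP kinases off, and 10 of their genes were followed here: Dusp1, Dusp2, Dusp4, Dusp5, Dusp6, Dusp7, Dusp8, Dusp9, Dusp10 and Dusp16. Every probe set annotated to one of these symbols alone was taken, which gave 18 probe sets among the 38195 tested, and 10 genes among 18029. RNA of heart tissue was measured on Affymetrix arrays, 1 array per mouse. The groups were 3 Tmbim1 KO mice and 3 Flox wild type mice (KO and WT below), all C57BL/6, 8 weeks old and 2 weeks after aortic banding, which the labels spell as binding. Banding narrows the aorta and raises the pressure load on the heart, and every mouse in both groups underwent it. Unoperated hearts were not analysed here, so the comparison is of genotypes under load and not of banding itself. How and in which cells Tmbim1 was deleted is not given in the sources used here.

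MAP kinases of the ERK, JNK and p38 families are activated by phosphorylation of a threonine and a nearby tyrosine, and these phosphatases remove both phosphates. The nuclear members (Dusp1, Dusp2, Dusp4 and Dusp5) are mostly inducible genes that growth factors and stress switch on, so they act as delayed feedback. Dusp6, Dusp7 and Dusp9 encode mainly cytoplasmic enzymes that prefer ERK, and Dusp8, Dusp10 and Dusp16 encode enzymes that prefer JNK and p38. In the heart, ERK, JNK and p38 are activated by pressure load, and overexpressed MKP-1, the Dusp1 product, restrains hypertrophy in mice.

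The deleted gene and the arrays were checked first. Tmbim1 was at 7.53, 7.49 and 7.56 log2 in the KO hearts, against 8.58, 8.38 and 8.33 in the WT hearts. The KO minus WT difference was -0.91 (SE 0.10), with a limma adjusted p = 0.00579, and without KO replicate 2 it was -0.89 (adjusted p = 0.0512). Cardiomyocyte markers were near the top of the scale on every array, with Tnnt2, cardiac troponin T, at 13.24 to 13.28 in KO hearts and 13.28 to 13.32 in WT hearts. KO replicate 1 stood apart: the mean log2 signal of 8 atrial markers was 9.72 on that array, 5.77 and 5.57 in the other KO hearts and 5.36 to 5.63 in WT hearts. Of the 8 atrial markers 1 passed, where 0.549% of all genes did. It was Nppa, the atrial natriuretic peptide gene, which ventricles also express under load, with a difference of 1.19 (limma adjusted p = 0.0496). Nppa did not pass without KO replicate 1 (1.10, adjusted p = 0.202) or without any other single array except WT replicate 3. WT replicate 3 stood apart as well: on the first principal component the KO arrays were at 11.04 to 23.41, WT replicates 1 and 2 at -8.48 and -9.65, and WT replicate 3 at -37.0. For part of the results below, values without these arrays, singly or together, are given. Other genes and the marker lists are given with all 6 arrays only.

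No phosphatase gene differed between the genotypes past the threshold of an adjusted p of 0.05 (limma, Benjamini-Hochberg over all probe sets). The count was 0 of 18 member probe sets, where 0.422% of all probe sets passed, and 0 of 10 genes at their main probe set, where 0.549% of all genes did. The main probe set of a gene is its brightest over the 6 arrays. At an unadjusted p under 0.05 there were 4 of the 10 genes, or 40%, beside 11.5% of all genes, and 5 of the 18 probe sets, or 27.8%, beside 10.6% of all. These were Dusp1, Dusp4 and Dusp6, with higher values in KO hearts, as in 5.19% of all genes, and Dusp7, with lower values, as in 6.33%. The 3 KO values lay wholly to one side of the 3 WT values for 2 genes, Dusp1 and Dusp7, which is 20% beside 16.7% of all genes, and for 3 probe sets, which is 16.7% beside 15.2% of all. These last shares were near those of all features. Differences are KO minus WT on the log2 scale throughout, with 3 mice in each group. The difference was positive for 9 of the 10 genes, with a median of 0.14, while 49.4% of all genes had a positive difference and their median was 0.00. Of the 18 probe sets, 13 were positive and 5 negative, while 49.4% of all probe sets were positive. Among the 9 genes, Dusp5 and Dusp10 changed sign when single arrays were left out.

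**Figure D1:**
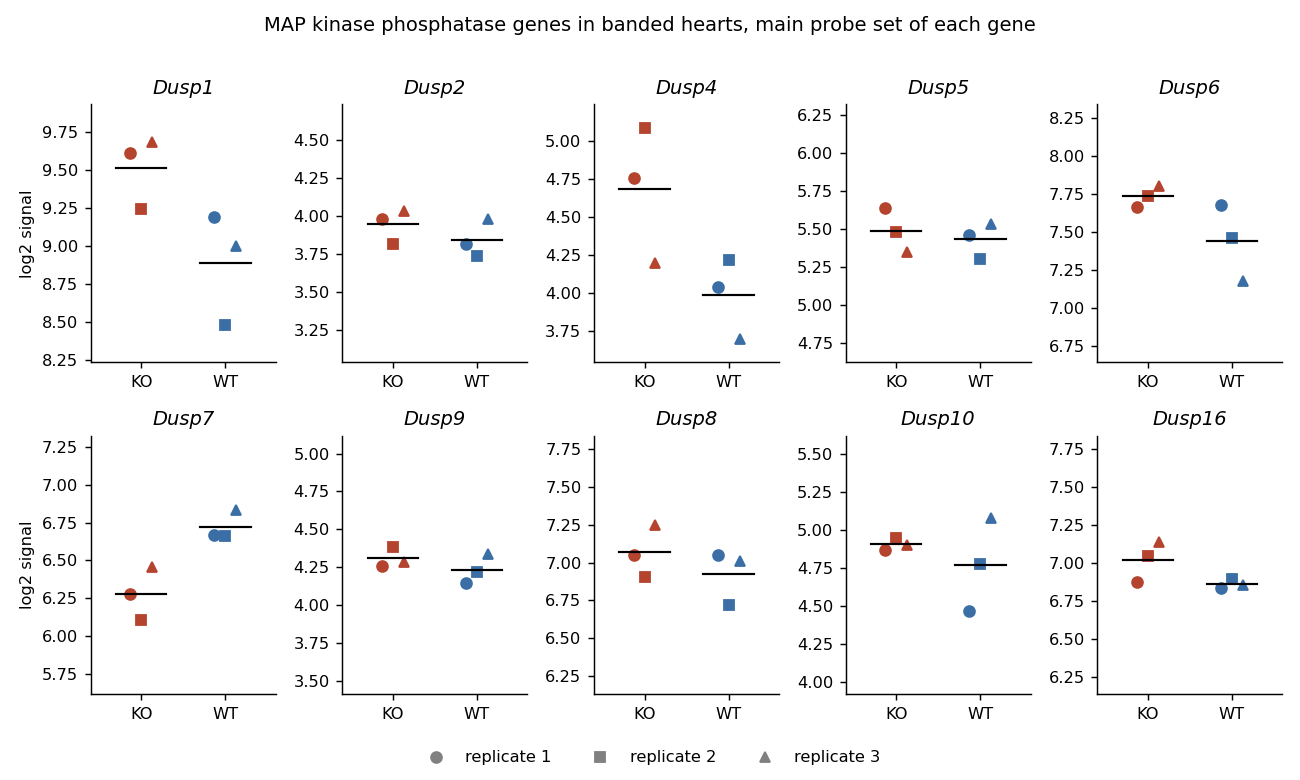
Log2 signal (vertical axis, every panel spanning the same height) of each phosphatase gene at its main probe set, with 1 point per mouse, KO hearts left of WT hearts, and black lines at the group means. Dusp1 and Dusp7 are the panels in which the groups do not overlap; Dusp4 and Dusp6 overlap by the lowest KO value and the highest WT value.

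Dusp1 encodes MKP-1, a nuclear phosphatase of p38, JNK and ERK and the classic immediate early member of the family. Its signal was 9.62, 9.24 and 9.69 in the KO hearts, against 9.19, 8.48 and 9.001 in the WT hearts. Every KO value was above every WT value, although KO replicate 2 exceeded WT replicate 1 by little, and WT replicate 2 was the low value of its group. The KO mean was 9.52 ± 0.24 and the WT mean 8.89 ± 0.37 (SD, n = 3 each), a difference of 0.62 (SE 0.18, 95% interval 0.22 to 1.03) or 1.54-fold, and it did not pass (limma adjusted p = 0.227). It was 0.58 without KO replicate 1, 0.68 without WT replicate 3 and 0.42 without WT replicate 2.

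Dusp4 encodes MKP-2, the nuclear relative of MKP-1, and had the largest positive difference of the 10 genes. Its signal was 4.76, 5.09 and 4.20 in the KO hearts, against 4.04, 4.22 and 3.70 in the WT hearts. KO replicates 1 and 2 were above all WT hearts, whereas KO replicate 3 was just under WT replicate 2. The means were 4.68 ± 0.45 in KO and 3.98 ± 0.27 in WT hearts (SD, n = 3 each), a difference of 0.70 (SE 0.21, 95% interval 0.23 to 1.17) or 1.62-fold, with a limma adjusted p = 0.241. The difference was 0.94 without KO replicate 3, 0.49 without KO replicate 2, 0.66 without KO replicate 1 and 0.55 without WT replicate 3. It was 0.51 without KO replicate 1 and WT replicate 3 together.

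The other nuclear members had small differences with intervals that include 0. Dusp5, which encodes a nuclear phosphatase selective for ERK, was at 5.64, 5.48 and 5.35 in KO hearts, against 5.46, 5.30 and 5.53 in WT hearts, a difference of 0.06 with a 95% interval from -0.19 to 0.31. The groups overlapped almost completely, and the sign of the difference turned to -0.02 without KO replicate 1 and to -0.01 without WT replicate 2. Dusp2, which encodes PAC-1, a phosphatase best known from activated lymphocytes and myeloid cells, was at 3.98, 3.82 and 4.03 in KO hearts, against 3.81, 3.73 and 3.98 in WT hearts. Its difference was 0.10 (95% interval -0.14 to 0.34), and the groups overlapped. It was 0.05 without WT replicate 2, 0.06 without KO replicate 3, 0.16 without KO replicate 2 and 0.17 without WT replicate 3. T and NK cell markers, 8 measured, averaged 3.75 to 3.87 log2 in KO and 3.83 to 4.20 in WT hearts, and 5 B cell markers 3.76 to 3.91 in KO and 3.83 to 3.95 in WT hearts. Of the 13, 0 passed the threshold and 2, Ncr1 and Cd79a, had an unadjusted p under 0.05 by limma, both lower in KO hearts. That count was near the 11.5% of all genes. The differences went both ways, with 2 T and NK markers positive and 6 negative, and 3 B cell markers positive and 2 negative. In RNA of heart tissue, fewer cells of a type and less RNA per cell cannot be told apart.

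Sequence upstream of 3 of these genes is shown because Dusp1 and Dusp5 are the nuclear members known to be induced through a CRE and through serum response factor, and Dusp7 was the gene with lower values. The sequences are from RefSeq on GRCm38.p6, read 5′ to 3′ on the gene's strand and ending just before its outermost annotated start. Dusp1 is chr17:26508473-26508722 on the minus strand, Dusp5 is chr19:53528895-53529144 on the plus strand and Dusp7 is chr9:106368382-106368559 on the plus strand. Capitals mark matches to the cyclic AMP response element (CRE, TGACGTCA), to its core TGACGT, which every CRE match also contains, or to the CArG box bound by serum response factor.
Dusp1 upstream: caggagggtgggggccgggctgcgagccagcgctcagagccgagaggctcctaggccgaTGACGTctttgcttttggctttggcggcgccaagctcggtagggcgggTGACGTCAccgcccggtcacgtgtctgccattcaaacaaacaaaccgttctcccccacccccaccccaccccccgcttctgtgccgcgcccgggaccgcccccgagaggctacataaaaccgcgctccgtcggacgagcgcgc
Dusp5 upstream: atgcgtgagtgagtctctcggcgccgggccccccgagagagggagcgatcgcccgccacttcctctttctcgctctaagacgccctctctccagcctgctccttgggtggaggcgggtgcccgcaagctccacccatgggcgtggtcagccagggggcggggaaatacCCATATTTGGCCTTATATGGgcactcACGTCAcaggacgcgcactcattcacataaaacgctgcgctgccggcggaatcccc
Dusp7 upstream: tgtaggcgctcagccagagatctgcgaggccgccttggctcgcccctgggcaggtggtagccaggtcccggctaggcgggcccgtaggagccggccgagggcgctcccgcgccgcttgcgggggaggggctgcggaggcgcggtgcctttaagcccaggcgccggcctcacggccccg

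Motifs were searched on both strands in the RefSeq window from 250 bases before to 50 after each start, which was at hand for 8 of the 10 genes, all but Dusp4 and Dusp9. Dusp1 held 1 CRE and a further TGACGT core, and Dusp5 held 2 CArG boxes next to each other and 1 TGACGT core. Dusp2, Dusp6, Dusp7, Dusp10 and Dusp16, 5 of the 8, held none of the motifs. Among 32851 such windows, 1.79% held a CRE, 7.51% the TGACGT core and 1.63% a CArG box. The AP-1 site TGANTCA was in 7.81% of all windows and in 0 of the 8. Dusp8, of the JNK and p38 class, held 2 CREs, shown in capitals inside 30-base stretches. The stretches are chr7:142095373-142095402 and chr7:142095329-142095358 on the minus strand. All these motif matches describe letters in the window and not sites in use. The 300-base windows were rich in G and C, at 67.0% for Dusp1, 66.7% for Dusp5, 73.3% for Dusp8 and 78.7% for Dusp7.
Dusp8 upper: gcccgctccgcTGACGTCAcctgcccccga
Dusp8 lower: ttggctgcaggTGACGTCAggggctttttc

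Dusp7 was the member with lower values in KO hearts, and its probe sets ran the same way. It encodes MKP-X, a cytoplasmic phosphatase of ERK. Its main probe set was at 6.28, 6.11 and 6.46 in the KO hearts, against 6.67, 6.66 and 6.83 in the WT hearts. All KO values were below all WT values, and KO replicate 2 was the lowest. The means were 6.28 ± 0.17 in KO and 6.72 ± 0.10 in WT hearts (SD, n = 3 each), a difference of -0.44 (SE 0.11, 95% interval -0.69 to -0.19), or 1.36-fold lower in KO hearts. This was the smallest p of the 10 genes and did not pass (limma adjusted p = 0.172).

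The other Dusp7 probe sets gave the same sign. The dimmest was at 3.56, 3.22 and 3.83 in KO hearts, against a mean of 4.05 ± 0.05 in WT hearts (SD, n = 3), again with no overlap. Its difference was -0.51 (SE 0.14, limma adjusted p = 0.205). The third, whose identifier marks probes that can bind other transcripts, was at 6.17, 6.12 and 6.47 in KO hearts, against 6.40, 6.56 and 6.56 in WT hearts, where KO replicate 3 exceeded WT replicate 1. Its difference was -0.25 (95% interval -0.52 to 0.01). Probe sets of one gene share the same RNA and are not independent measurements. The main probe set was at -0.44 without KO replicate 1, at -0.38 without WT replicate 3 and at -0.38 without both.

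Dusp6 and Dusp9 complete the ERK class. Dusp6 encodes MKP-3, a cytoplasmic phosphatase of ERK that ERK activity itself induces, and deletion of the gene in mice raises basal ERK phosphorylation in the heart. It was at 7.67, 7.74 and 7.81 in the KO hearts, against 7.68, 7.47 and 7.18 in the WT hearts. The KO hearts were close together (7.74 ± 0.07) and the WT hearts spread (7.44 ± 0.25, SD, n = 3 each), with WT replicate 1 just above KO replicate 1. The difference was 0.30 (SE 0.13, 95% interval 0.01 to 0.58, limma adjusted p = 0.453), 0.33 without KO replicate 1, and 0.17 without WT replicate 3, the low array. Dusp9, which encodes MKP-4, known from placenta and insulin-responsive tissues, was at 4.26, 4.39 and 4.29 in KO hearts, against 4.14, 4.22 and 4.34 in WT hearts, a difference of 0.08 (95% interval -0.14 to 0.29) that was 0.03 without WT replicate 1, 0.04 without KO replicate 2 and 0.13 without WT replicate 3. The groups overlapped, and the other 2 Dusp9 probe sets (-0.01 and 0.06) were below the lower quartile of all 6 arrays.

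**Figure D2:**
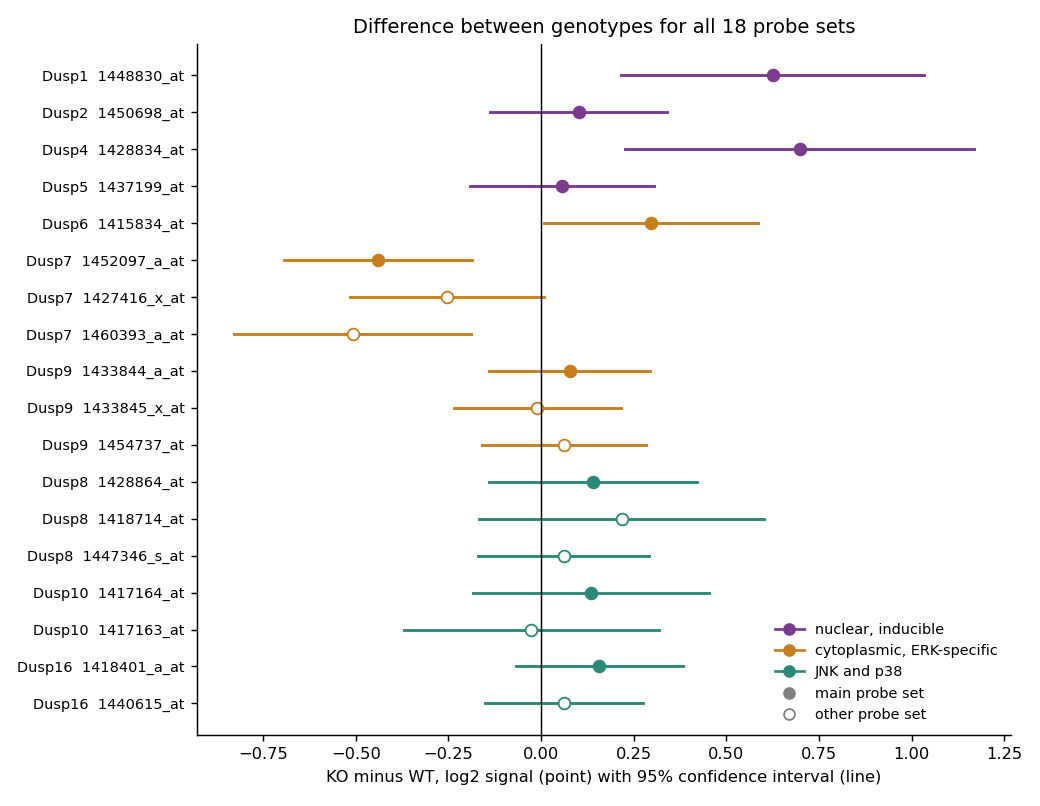
KO minus WT difference in log2 signal (horizontal axis) of all 18 member probe sets, with 95% confidence intervals, coloured by class. The 3 Dusp7 probe sets lie left of 0, between -0.25 and -0.51, and the intervals of Dusp1, Dusp4 and Dusp6 lie right of 0, while those of the JNK and p38 class all include 0.

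The JNK and p38 phosphatases showed differences of 0.14 to 0.16 at their main probe sets, with 0 of 3 at an unadjusted p under 0.05 by limma and all 3 intervals including 0. Dusp16 encodes MKP-7, a phosphatase of JNK and p38 that shuttles between nucleus and cytoplasm. It was at 6.87, 7.04 and 7.14 in KO hearts, against 6.84, 6.89 and 6.86 in WT hearts, a difference of 0.16 (95% interval -0.07 to 0.38). The difference was 0.10 without KO replicate 3 and 0.23 without KO replicate 1. KO replicate 1 lay inside the WT range and the other KO hearts above it. The gene's second probe set was below the lower quartile of all 6 arrays.

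Dusp8, which encodes a neuronal and muscle phosphatase of JNK and p38, was at 7.05, 6.91 and 7.25 in KO hearts, against 7.05, 6.72 and 7.01 in WT hearts, a difference of 0.14 (95% interval -0.14 to 0.42). Single arrays moved it, to 0.04 without WT replicate 2, 0.05 without KO replicate 3 and 0.22 without KO replicate 2. A second Dusp8 probe set was more spread in KO hearts, at 6.89, 6.49 and 7.30, against 6.63, 6.70 and 6.71 in WT hearts, so that KO hearts lay on both sides of the WT range. Dusp10, which encodes MKP-5, a phosphatase of JNK and p38, was at 4.87, 4.95 and 4.90 in KO hearts, against 4.46, 4.77 and 5.08 in WT hearts. The KO hearts lay inside the WT range, and the difference of 0.14 (95% interval -0.18 to 0.45) turned to -0.02 without WT replicate 1. It was 0.29 without WT replicate 3 (unadjusted p = 0.0406, limma adjusted p = 0.537) and 0.31 without KO replicate 1 and WT replicate 3. The dimmer Dusp10 probe set was at -0.03.

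The highest and the lowest of the 6 values each fell on several arrays. The counts that follow are over both groups, so they include the difference between genotypes. KO replicate 3 held the highest of the 6 values for 5 of the 10 genes, KO replicate 2 for 2, KO replicate 1 for 1 and WT replicate 3 for 2. WT replicate 2 held the lowest value for 4 genes, WT replicate 1 for 3, WT replicate 3 for 2 and KO replicate 2 for 1. Dusp4 and Dusp1 ranked the KO hearts differently, with KO replicate 3 the lowest for Dusp4 and the highest for Dusp1.

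**Figure D3:**
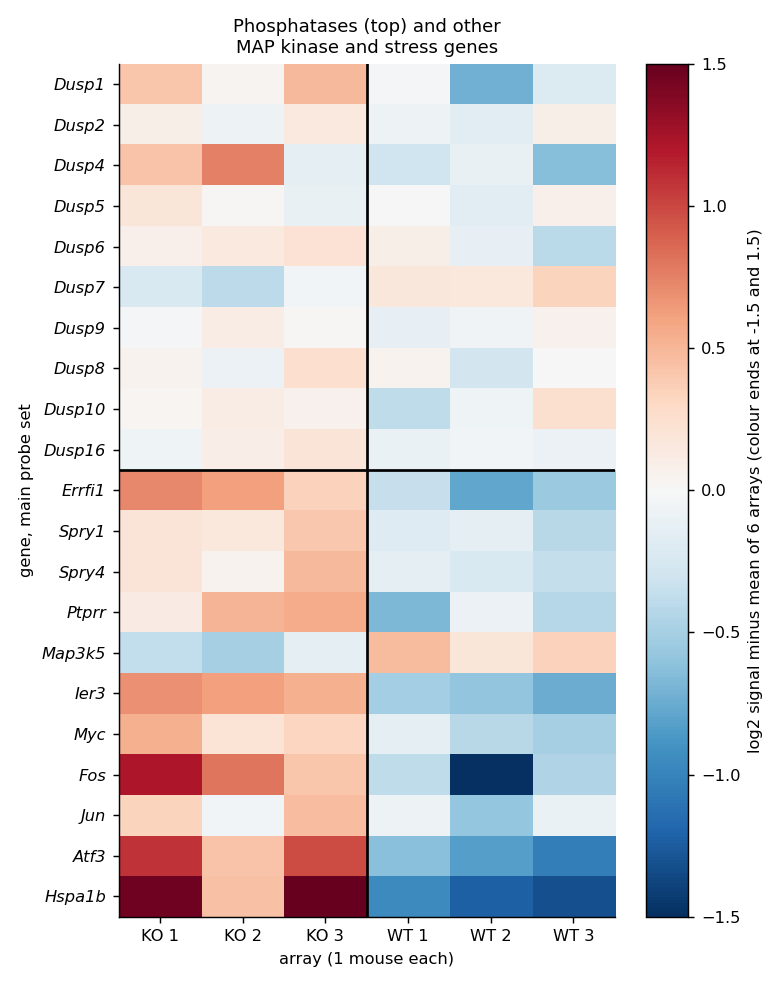
Log2 signal of each gene (rows) minus its mean over the 6 arrays (columns, KO left of WT), with the 10 phosphatases above the black line and other MAP kinase and stress genes below it. Of the phosphatases, Dusp1 and Dusp7 are those whose KO and WT values do not overlap, Dusp7 in the other direction. For Dusp1, KO replicate 2 (9.24) and WT replicate 1 (9.19) are close. Errfi1, Ier3 and Hspa1b below the line differ more.

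Around the phosphatases, the kinases themselves showed no gene past the threshold. Of the 9 measured genes of the ERK cascade, 10 of the JNK cascade, 8 of the p38 cascade and 4 of the ERK5 cascade, 0 passed by limma and 3 had an unadjusted p under 0.05, all lower in KO hearts. Of all genes, 11.5% had such a p and 6.33% had it with lower values, so this count was near the share of all genes. The medians of these lists were 0.05, -0.00, 0.02 and 0.02, beside 0.00 over all genes. Map3k5, which encodes ASK1, a stress-activated kinase upstream of JNK and p38, was at 6.41, 6.28 and 6.65 in KO hearts, against 7.26, 6.97 and 7.12 in WT hearts. The groups did not overlap, and the difference was -0.67 (SE 0.12, limma adjusted p = 0.0624). The others were Sos1, an exchange factor that activates RAS, at -0.28 (adjusted p = 0.395), and Mapkapk2, a kinase activated by p38, at -0.33 (adjusted p = 0.404). In the ERK5 list the smallest p was that of Map2k5, which encodes the kinase upstream of ERK5, at -0.16 (adjusted p = 0.620).

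Feedback inhibitors of ERK signalling other than phosphatases held 1 gene that passed. Errfi1, an inhibitor of the EGF receptor, was at 8.42, 8.31 and 8.05 in KO hearts, against 7.36, 6.91 and 7.15 in WT hearts, and rose by 1.12 (SE 0.14, limma adjusted p = 0.0102). It was 1 of 11 measured members, where 0.322% of all genes passed with higher values in KO hearts. By limma 4 had an unadjusted p under 0.05, all higher in KO hearts, as in 5.19% of all genes, and the list median was 0.17. The Errfi1 call was lost without KO replicate 1 (1.04, adjusted p = 0.0531) and without KO replicate 2 (1.09, adjusted p = 0.0836), and without KO replicate 1 and WT replicate 3 together (1.04, adjusted p = 0.130). Spry1 and Spry4, Sprouty proteins that block signalling from receptor tyrosine kinases to ERK, were at 0.50 (adjusted p = 0.124) and 0.49 (adjusted p = 0.175). Both had KO values wholly above the WT values, Spry1 at 7.50 to 7.74 in KO and 6.93 to 7.20 in WT hearts.

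Phosphatases outside the 10 members also gave no gene past the threshold. Of 16 atypical dual specificity phosphatase genes, which lack the MAP kinase docking domain, 0 passed by limma and 0 had an unadjusted p under 0.05, with differences from -0.19 (Dusp18) to 0.20 (Dusp3) and a median of 0.02. Dusp3, an atypical phosphatase of ERK and JNK, was at 8.69, 8.79 and 8.84 in KO hearts, against 8.76, 8.61 and 8.36 in WT hearts. Of 7 tyrosine or serine and threonine phosphatases that act on MAP kinases, 0 passed and 2 had an unadjusted p under 0.05, beside 11.5% of all genes. Ptprr, a tyrosine phosphatase that docks on ERK and p38, was at 5.53, 5.92 and 5.97 in KO hearts, against 4.73, 5.33 and 4.98 in WT hearts. The groups did not overlap, and its difference of 0.79 (SE 0.17) had a limma adjusted p = 0.0950.

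Genes that ERK activity switches on had mostly positive differences, and 1 passed the threshold. Their mean log2 signal was 6.48 to 6.77 in KO and 6.06 to 6.32 in WT hearts, 10 of 11 differences were positive and the list median was 0.18. Of the 11 measured members, 1 passed with higher values in KO hearts, where 0.322% of all genes did. It was Ier3, an early response gene (1.23, SE 0.10, limma adjusted p = 0.00124). By limma 5 had an unadjusted p under 0.05, beside 11.5% of all genes, 4 higher and 1 lower in KO hearts. Ier3, Fos and Egr1 are also in the immediate early list below, so these lists are not independent. Myc, a transcription factor of growth, was at 5.56, 5.24 and 5.34 in KO hearts, against 4.88, 4.61 and 4.52 in WT hearts, a difference of 0.71 that did not pass (adjusted p = 0.0539). Fos, an immediate early transcription factor, was at 7.19, 6.77 and 6.39 in KO hearts, against 5.59, 4.38 and 5.52 in WT hearts, a difference of 1.62 that also did not pass (adjusted p = 0.0641). Both separated the groups. The rest of the list was chosen for mention after its values were seen: Egr1 was at 0.94 (adjusted p = 0.304), Phlda1 at 0.26 and Epha2 at 0.18, Etv4, Etv5, Ccnd1 and Fosl1 lay between 0.02 and 0.03, and Epha4, the 1 negative gene, was at -0.62 (adjusted p = 0.415).

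**Figure D4:**
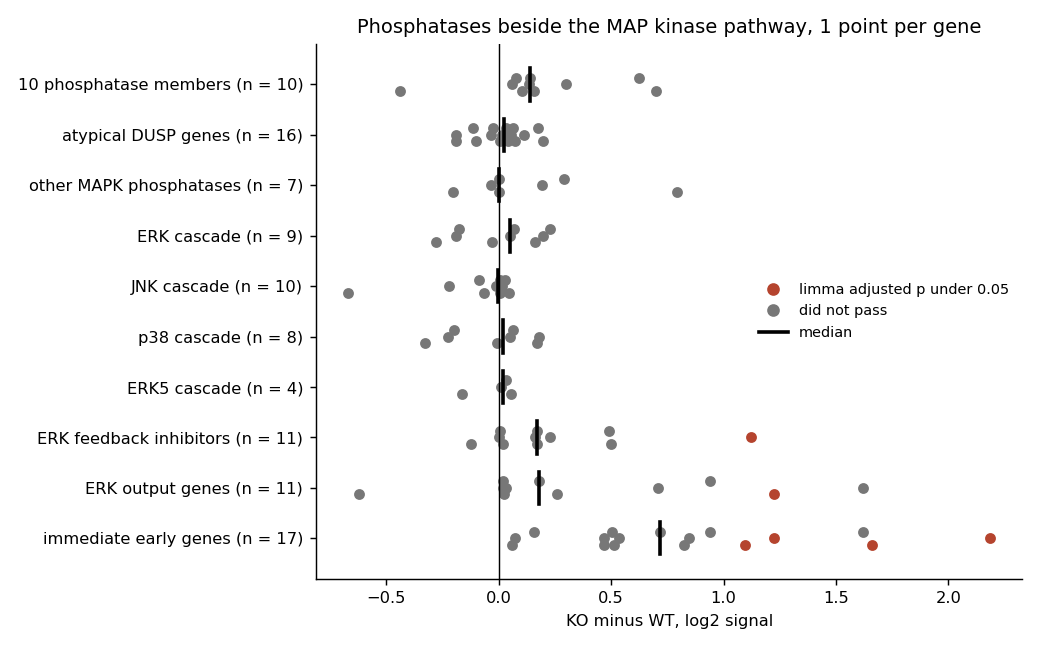
KO minus WT difference in log2 signal (horizontal axis) of each measured gene at its main probe set, by list, with black bars at the list medians and red points for a limma adjusted p under 0.05. The phosphatases span -0.44 to 0.70 around a median of 0.14, the kinase cascades centre near 0, and the immediate early genes reach 2.19.

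Immediate early genes and most heat shock genes stood higher in the KO hearts, as Dusp1 did. Over 17 immediate early genes the mean log2 signal was 6.82 to 7.16 in KO and 5.95 to 6.32 in WT hearts, with a median difference of 0.72. At their main probe sets 4 of 17 passed with higher values in KO hearts, where 0.322% of all genes did. These were Ier3, Atf3, a stress-induced transcription factor (1.66, limma adjusted p = 0.00485), Btg2, an antiproliferative gene (1.10, adjusted p = 0.0179), and Egr2, a transcription factor (2.19, adjusted p = 0.0444). Egr3 did not pass at its main probe set (0.07), but a dimmer probe set of the gene did (1.04, limma adjusted p = 0.0347). Egr2 did not pass without any single array except WT replicate 3. The count was 2 without KO replicate 2, WT replicate 1 or WT replicate 2, and 2 without KO replicate 1 and WT replicate 3 together. Over 11 heat shock genes, often used as a sign of tissue handling, the mean was 9.54 to 9.83 in KO and 9.05 to 9.20 in WT hearts. Their median difference was 0.27, with 9 positive and 2 negative, Hspd1 (-0.20) and Bag3 (-0.19). Of the 11, 2 passed with higher values in KO hearts, where 0.322% of all genes did. These were Hspa1b (2.33, limma adjusted p = 0.00579) and Hspa1a (2.20, adjusted p = 0.0429), near-identical genes whose probes may not tell them apart. The count was 1 without KO replicate 1 or any single WT array, and 0 without KO replicate 1 and WT replicate 3 together. Both lists separated the groups, as Dusp1 did. KO replicate 2 was lowest among KO hearts in both lists and for Dusp1, whereas among WT hearts Dusp1 and the immediate early list were lowest on WT replicate 2 and the heat shock list on WT replicate 3.

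Markers of other cells were read beside these, with 0 past the threshold in each of the lists that follow. Fibroblast markers, 8 measured, averaged 9.32 to 9.44 in KO hearts, with a median difference of 0.33. WT replicates 1 and 2 were at 9.22 and 9.23, and WT replicate 3, which stood apart, was at 8.49. Neutrophil markers, 5 measured, averaged 4.14 to 4.44 in KO and 3.73 to 3.96 in WT hearts, with S100a9 at 1.32 (limma adjusted p = 0.0641) and S100a8 at 0.95 (adjusted p = 0.109), both encoding calcium-binding proteins of myeloid cells, and the other 3 between -0.02 and 0.08. Cardiomyocyte markers, 11 measured, averaged 12.84 to 12.88 in KO and 12.95 to 13.03 in WT hearts. These 3 lists separated the groups. Lists that overlapped were those of macrophages and monocytes, 10 measured (6.65 to 6.80 in KO, 6.37 to 6.68 in WT hearts), smooth muscle and pericytes, 7 measured (8.02 to 8.86 in KO, 7.99 to 8.14 in WT hearts), endothelium, 8 measured (7.76 to 7.96 in KO, 7.88 to 7.90 in WT hearts), and red cells, 3 measured (4.23 to 4.36 in KO, 3.93 to 4.26 in WT hearts). The part of handling or of the mix of cells in the phosphatase values was not tested.

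The genes whose profile over the 6 arrays was most like that of Dusp7 were Slc38a3, Nat1, Pnpla2, Pink1 and Pygm. Likeness was the root mean square difference of log2 values centred on each gene's mean, over 18019 genes, which was 0.04 for Slc38a3, a glutamine transporter, and 0.05 for Pygm, the muscle glycogen phosphorylase, beside a median of 0.27. Their KO minus WT differences were -0.47 for Slc38a3, -0.42 for Nat1, -0.40 for Pnpla2, a triglyceride lipase, -0.43 for Pink1, a mitochondrial kinase, and -0.52 for Pygm. Of the 5, 0 passed by limma. Choice by likeness over the same 6 arrays sets these differences near that of Dusp7, and those below near that of Dusp1. For Dusp1, added after its values were seen, the nearest gene was Jun, an immediate early transcription factor, at a distance of 0.09 beside a median of 0.42. Jun was at 7.98, 7.59 and 8.10 in KO hearts, against 7.56, 7.06 and 7.54 in WT hearts, a difference of 0.50 (limma adjusted p = 0.289). Next were Sox17 (0.64), Cldn5 (0.63), Map3k6 (0.66) and Unc5b (0.63), by their KO minus WT differences, of which 0 passed by limma.

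**Figure D5:**
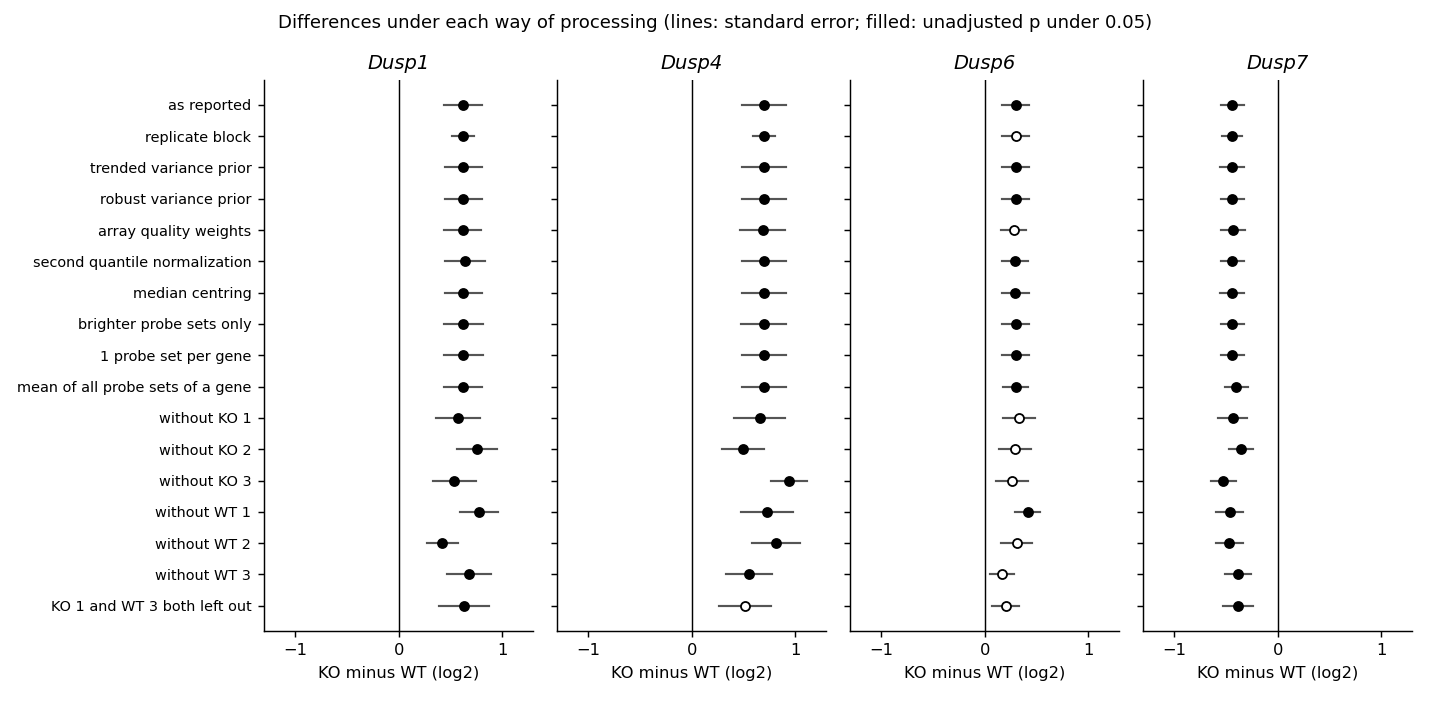
KO minus WT difference in log2 signal (horizontal axes) of the 4 genes with an unadjusted p under 0.05, as reported and under 16 other ways of processing (rows), with standard errors as lines and filled points for an unadjusted p under 0.05. Dusp1 stays between 0.42 and 0.78, Dusp4 between 0.49 and 0.94, Dusp6 between 0.17 and 0.42 and Dusp7 between -0.53 and -0.35.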

How the data were processed

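Heart RNA (400 ng, biotin-labelled cRNA) of 3 KO and 3 WT mice was hybridised to 1 array each. The authors deposited log2 signals of probe sets. Per the submitters' processing notes, RMA and limma were used; the sources used here do not give their versions. Quantile normalization in RMA removes overall shifts between arrays and can compress differences of dim probe sets. Array medians were 4.24 to 4.28, and arrays correlated at 0.989 to 0.996. The platform annotation gave 34325 of 38195 probe sets 1 symbol, 62 several and 3808 none, and 13 control probe sets were left out.

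KO was compared with WT by limma 3.58.1 (R 4.3.3; lmFit, eBayes, two-sided), adjusted over 38195 probe sets and tested on simulated data. The members, lists and tests were chosen with earlier results of these data known. The text names all 10 members, other member probe sets of opposite sign, and in each list every gene past the threshold and up to 3 others with the smallest p. The alternatives were a replicate block, other variance priors, array weights, 2 further normalizations, a filter on dim probe sets, 2 ways of reducing to genes, and arrays left out. Scan batches and detection calls were not analysed here, and 3 arrays per group limit the precision.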

Additional observations from a re-analysis of the deposited data

How the results depend on the processing

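All 16 alternatives gave 0 member genes and 0 member probe sets past the threshold. Dusp1, Dusp2, Dusp4, Dusp6, Dusp7, Dusp8, Dusp9 and Dusp16 kept their sign in all 16, while Dusp5 reversed without KO replicate 1 and without WT replicate 2 (lowest -0.0174, highest 0.13 with single arrays left out) and Dusp10 without WT replicate 1 (lowest -0.0185, highest 0.29). Dusp1 and Dusp7 had an unadjusted p under 0.05 in 16 of 16, Dusp4 in 15 and Dusp6 in 8. Leaving out KO replicate 1 and WT replicate 3 together gave 2 such genes in place of 4, and a member median of 0.20 in place of 0.14. Adjusted p ranged from 0.0671 to 0.655 for Dusp1, 0.0532 to 0.780 for Dusp4, 0.257 to 0.860 for Dusp6 and 0.132 to 0.663 for Dusp7. The count of all probe sets past the threshold was 161; it was 102 with 1 probe set per gene and 84 with gene means, where fewer features were tested, 38 to 86 with single arrays left out, and 29 without KO replicate 1 and WT replicate 3. The count of phosphatase and MAP kinase pathway genes outside the members was 2, with 4 under the replicate block, 4 under the robust prior, 1 or 2 with single arrays left out and 1 without those 2 arrays; the cause was not tested. Whether the replicate numbers pair the samples could not be told. Same-numbered arrays had deviations correlated at 0.06, 0.14 and 0.02, and other pairs at -0.14 to 0.08. KO replicate 1 correlated best with WT replicate 3 (0.08). Correlations this weak, of deviations that sum to 0 within each group, cannot settle it. Under the replicate block all probe sets past the threshold numbered 168, and Dusp1 and Dusp4 had their lowest adjusted p. The block gave an SE of 0.11 in place of 0.18 for Dusp1, and of 0.11 in place of 0.21 for Dusp4. Alternatives for the immediate early, heat shock and Nppa calls and for the other Dusp7 probe sets were chosen after seeing the data: all kept their sign, Atf3 and Hspa1b passed in 15 of 16, Btg2 in 12, Egr2 in 10, Hspa1a in 7 and Nppa in 6. The other normalizations moved the median of all differences by less than 0.01. With 3 arrays in each group, the width of the intervals limits what a p above the threshold says.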
